A study of Mus musculus with 6 samples.

Results

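Beta-tubulin is encoded in the mouse by a family of isotype genes, and 8 of them are described here in Ikaros-deficient thymic lymphomas: Tubb1, Tubb2a, Tubb2b, Tubb3, Tubb4a, Tubb4b, Tubb5 and Tubb6. Every probe set of the array whose gene symbol was exactly 1 of these 8 was taken, which gave 16 of 45101 probe sets and 8 of 18193 named genes. The family was chosen because Tubb2b and Tubb2a were already known to differ between the tumour groups, so the group differences of its members are a description, and no p-value of a member is given in support of anything.

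Gene expression was measured on Affymetrix arrays, 1 array per tumour, in 3 lymphomas with the genotype IkL/L Notch1f/f CD4-Cre+, taken at 8 to 10 weeks of age, and in 3 with the genotype IkL/L Notch1+/+ CD4-Cre+, taken at 18 to 20 weeks. All 6 mice were homozygous for IkL, a hypomorphic allele of the Ikaros gene Ikzf1, and carried a transgene in which Cre is driven by regulatory sequence of Cd4 and is active in developing T cells. In the Notch1f/f lymphomas the labels give a deletion of the promoter and first exon of Notch1. The mice of the groups differed in age as well as genotype, so these cannot be told apart. Cells were taken from disrupted tumours without a stated sort, so that in a bulk sample fewer cells of a type and less RNA per cell cannot be told apart either.

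Microtubules are built from dimers of alpha- and beta-tubulin. The beta isotypes share most of their sequence and differ mainly in the short acidic tail at the carboxyl end, where many microtubule-associated proteins and modifying enzymes act. In mammals Tubb5 and Tubb4b are expressed in most tissues, Tubb2a and Tubb2b are abundant in the nervous system, Tubb3 is the isotype used as a marker of neurons, Tubb4a is found mainly in brain, Tubb6 is a broadly expressed and divergent isotype, and Tubb1 is the isotype of megakaryocytes and platelets. Beta-tubulin mRNAs are also under autoregulation, in which an excess of free tubulin triggers decay of the tubulin mRNAs that are being translated.

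Tubb2a and Tubb2b lie close together on chromosome 13, and both were higher in the Notch1f/f lymphomas. RefSeq promoter windows (GRCm38.p6) ran from 250 bases before the gene start to 50 after. Of the isotypes with an intensity over 1000 in some tumour, windows were at hand for Tubb2a, Tubb5 and Tubb4b, and these 3 are shown. Capitals mark the letters of a TATA box (TATAAA), a cyclic AMP response element (TGACGTCA), a CCAAT box (CCAAT) and the core shared by the Notch partner CSL and Ikaros (TGGGAA), each searched on both strands. The letters were chosen after the sequences had been seen. The windows are chr13:34077959-34078258 on the minus strand for Tubb2a, chr17:35838252-35838551 on the minus strand for Tubb5 and chr2:25224653-25224952 on the minus strand for Tubb4b.
Tubb2a: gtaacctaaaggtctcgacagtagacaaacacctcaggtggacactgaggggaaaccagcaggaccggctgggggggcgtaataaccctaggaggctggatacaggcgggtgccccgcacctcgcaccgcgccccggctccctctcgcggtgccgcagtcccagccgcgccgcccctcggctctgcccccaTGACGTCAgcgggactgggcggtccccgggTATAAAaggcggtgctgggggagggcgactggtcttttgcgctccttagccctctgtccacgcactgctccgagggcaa
Tubb5: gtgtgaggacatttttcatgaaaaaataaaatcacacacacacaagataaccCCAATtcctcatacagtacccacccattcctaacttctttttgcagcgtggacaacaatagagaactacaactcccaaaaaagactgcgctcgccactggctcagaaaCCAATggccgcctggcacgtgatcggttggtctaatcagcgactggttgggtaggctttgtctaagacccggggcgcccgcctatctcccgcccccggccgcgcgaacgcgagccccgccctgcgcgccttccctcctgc
Tubb4b: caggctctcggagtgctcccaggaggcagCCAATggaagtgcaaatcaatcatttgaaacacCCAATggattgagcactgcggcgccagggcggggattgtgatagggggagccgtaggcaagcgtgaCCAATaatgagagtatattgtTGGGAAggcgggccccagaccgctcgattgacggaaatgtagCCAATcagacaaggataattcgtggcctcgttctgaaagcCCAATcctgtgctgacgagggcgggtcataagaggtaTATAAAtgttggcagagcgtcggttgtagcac

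The Tubb2a window held a TATA box 29 bases before the gene start and a cyclic AMP response element 59 bases before it, but no CCAAT box. The Tubb5 window held 2 CCAAT boxes and neither of those elements, and the Tubb4b window held 5 CCAAT boxes, the letters TATAAA 18 bases after the gene start and the only TGGGAA of the 3 windows. Over all 32851 windows of the same length, 13.6% held TATAAA, 1.79% TGACGTCA, 37.4% CCAAT and 25.6% TGGGAA. With 67.0% G and C, the Tubb2a window was richer in these bases than the Tubb5 (55.0%) and Tubb4b (53.7%) windows and than the median window (52.7%). It was not the richest of the family: of the dim isotypes with a window, Tubb3 had 67.3%, Tubb4a 62.3% and Tubb1 56%. These matches describe the letters of the windows and say nothing of which factors bind there.

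The 6 arrays had been scaled alike by the authors, with 23.1% to 25.0% of probe sets over an intensity of 100 on each. Pearson's r between pairs of arrays, across the 27022 probe sets tested, ranged from 0.918 to 0.962. Probe sets are not independent, so this is a description. The array of Notch1f/f tumour 2 correlated with the Notch1+/+ arrays at 0.955 to 0.961 and with the other Notch1f/f arrays at 0.945 to 0.960, so it did not stand nearer to its own group. The highest r of Notch1+/+ tumour 1, 0.960, was also with an array of the other group, against 0.943 to 0.950 within its own. Its lowest r, 0.918, was with another Notch1f/f array. The T cell label held in every tumour: all 9 measured T-lineage markers had intensities over 100 on all 6 arrays, and their sum was 19712 to 23067 in the Notch1f/f lymphomas and 15916 to 18703 in the Notch1+/+ lymphomas. Cd3d was the brightest of them. The sums did not overlap between the groups. Of the 9 markers, 2 were higher in every Notch1f/f lymphoma than in any Notch1+/+ lymphoma, against 9.15% of all genes. In log2 difference, Notch1f/f minus Notch1+/+, 7 of the 9 lay above 0 and 2 below, where 51.6% of all genes lay below 0. Those below were Ptcra and Rag1, at -0.38 and -0.12. The part of T cell content in the Tubb2b and Tubb2a values was not tested.

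Tubb2b differed most. Its probe set, 1452679_at, had intensities of 1535, 1373 and 1255 in Notch1f/f tumours 1, 2 and 3, and of 218.5, 138 and 251 in Notch1+/+ tumours 1, 2 and 3. All 3 Notch1f/f values lay far above the highest Notch1+/+ value, with no overlap. The means were 1387 ± 141 in the Notch1f/f lymphomas and 202 ± 58.2 in the Notch1+/+ lymphomas (SD, n = 3 each), a log2 difference of 2.72 ± 0.24 (SE), or 6.57-fold on the scale of log2(intensity + 16) used for all folds and differences here. That scale understates the change of dim probe sets. Relative to its mean, Tubb2b varied by 10.1% between the Notch1f/f lymphomas and by 28.8% between the Notch1+/+ lymphomas. The Notch1f/f tumour whose array resembled the other group did not stand apart in Tubb2b, since the log2 difference was 2.72 without it too.

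Tubb2a, the neighbour and near copy of Tubb2b, had a bright and a dim probe set. The bright one, 1427347_s_at, had intensities of 1382, 1084 and 1537 in the Notch1f/f lymphomas and of 428.5, 253 and 229 in the Notch1+/+ lymphomas. Again no value of a group reached those of the other, with the lowest Notch1f/f value 2.53 times the highest Notch1+/+ value. The log2 difference was 2.12 ± 0.26 (SE), or 4.34-fold, and it was 2.26 without Notch1f/f tumour 2. The suffix _s_at marks probe sets that can detect more than 1 transcript, so part of this signal may belong to a related beta-tubulin, Tubb2b included. The dim probe set, 1427838_at, had 38.1, 37.4 and 38.6 in the Notch1f/f lymphomas and 32, 17.9 and 14.2 in the Notch1+/+ lymphomas. It pointed the same way without overlap but by less, with a log2 difference of 0.56 ± 0.24, which became 0.88 with a pseudocount of 1 and 0.26 with a pseudocount of 64. Within the Notch1f/f group the order of the tumours was not shared by both genes: tumour 3 was the lowest in Tubb2b and the highest in Tubb2a.

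**Figure D1:**
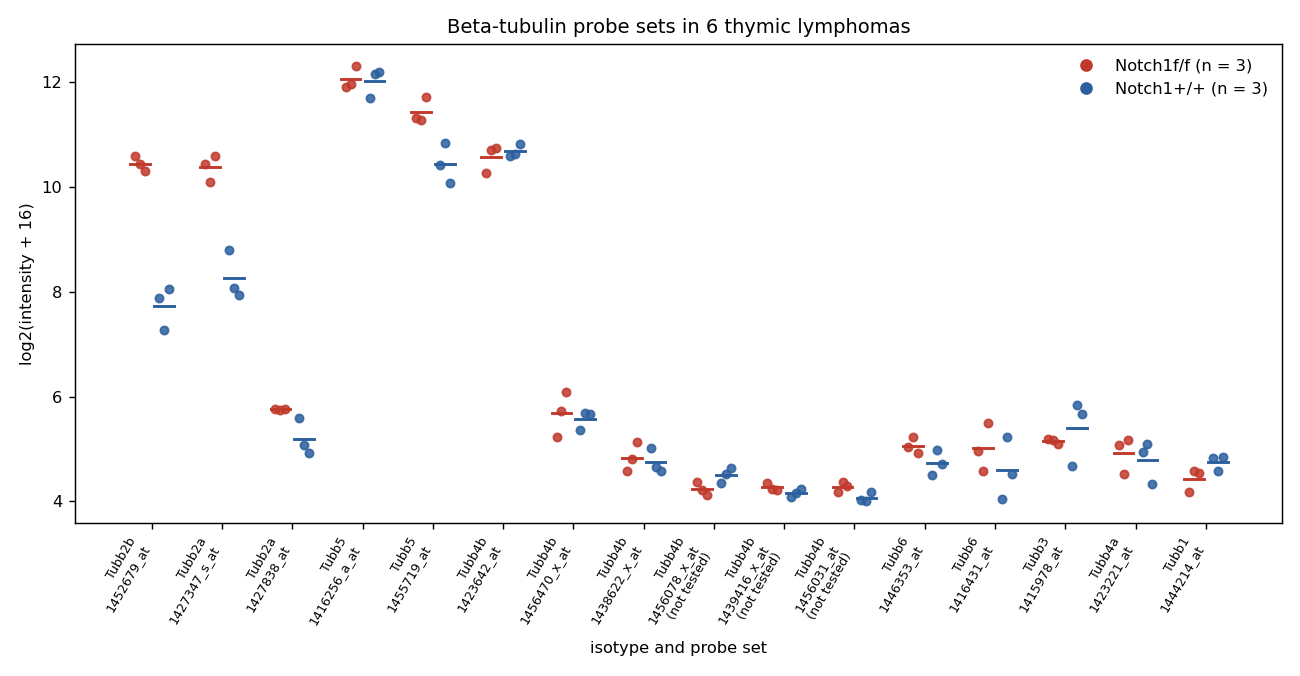
Intensity of all 16 beta-tubulin probe sets in each tumour as log2(intensity + 16), with the isotype and probe set on the horizontal axis; points are tumours and bars are group means. The groups lie apart for Tubb2b and the bright probe set of Tubb2a, and by less for Tubb5 1455719_at and the dim probe set of Tubb2a. The untested Tubb4b 1456031_at, at most 4.6, does not overlap either. On every array 11 probe sets stay under an intensity of 60.

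Tubb5, a ubiquitous isotype and the main beta-tubulin of many dividing cells, gave a split answer. Its probe set 1416256_a_at had 3846, 3965 and 5084 in the Notch1f/f lymphomas and 3302, 4580 and 4664 in the Notch1+/+ lymphomas, which overlap throughout, with a log2 difference of 0.05 ± 0.18. Its probe set 1455719_at had 2527, 2476 and 3373 in the Notch1f/f lymphomas and 1348, 1819 and 1067 in the Notch1+/+ lymphomas. Here the lowest Notch1f/f value was 1.36 times the highest Notch1+/+ value, with a log2 difference of 1.00 ± 0.22. The probe sets may read different parts or forms of the transcript. Their positions were not looked up, so no single direction is given for Tubb5.

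Tubb4b, the other ubiquitous isotype, was bright in both groups. Its probe set 1423642_at had 1224, 1652 and 1709 in the Notch1f/f lymphomas and 1520, 1574 and 1807 in the Notch1+/+ lymphomas. The ranges overlap, and the means were 1528 ± 265 in Notch1f/f and 1634 ± 152 in Notch1+/+ (SD, n = 3 each), with a log2 difference of -0.11 ± 0.18. Of its 5 other probe sets none exceeded an intensity of 51.9 on any array, and 3 were too dim to be tested. Those dim probe sets cannot check the bright one.

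The isotypes named for neurons, brain and platelets were dim in all 6 tumours. Tubb3 had 20.4, 20.1 and 18.2 in the Notch1f/f lymphomas, against 9.4, 41.6 and 34.6 in the Notch1+/+ lymphomas, so the Notch1f/f values lay inside the Notch1+/+ range (log2 difference -0.24 ± 0.31). Tubb4a had 17.8, 7.1 and 19.9 in the Notch1f/f lymphomas, against 14.6, 18.3 and 4.2 in the Notch1+/+ lymphomas (0.13 ± 0.26). Tubb1 had 2.0, 7.9 and 7.2 in the Notch1f/f lymphomas, against 12.3, 7.9 and 12.9 in the Notch1+/+ lymphomas (-0.32 ± 0.18). Each of these 3 isotypes had groups that met or overlapped. Tubb6 had a pair of dim probe sets, which reached at most 29.4 and 21.6 on any array and had log2 differences of 0.42 ± 0.33 and 0.33 ± 0.20, with overlapping groups on both. At such intensities, with no detection calls used, signal cannot be told from background.

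Over the family, 13 of 16 probe sets were bright enough to be tested, and all 8 genes had at least 1 of them. The count of log2 differences was 10 above 0 and 3 below, with a median of 0.13, where the median of all tested probe sets was -0.04. In 4 of the 13 the Notch1f/f lymphomas were higher without overlap, and in none were they lower. Among all tested probe sets, Notch1f/f values lay above without overlap in 8.13% and below in 10.4%. In limma with Benjamini-Hochberg adjustment over all tested probe sets, 1 of the 13, that of Tubb2b, passed an adjusted p of 0.05, where 0.0185% of all tested probe sets passed. Since the members were chosen on this contrast, neither these counts nor the call is a test of the family. The Tubb2b call was lost without Notch1f/f tumour 1 or without Notch1f/f tumour 3, while its log2 difference stayed between 2.48 and 2.88 whichever tumour was left out. Tubb2a was also called without Notch1+/+ tumour 1, when the count was 2. In rank, Tubb2b had the 10th highest log2 difference of all 27022 probe sets and the bright Tubb2a probe set the 27th.

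**Figure D2:**
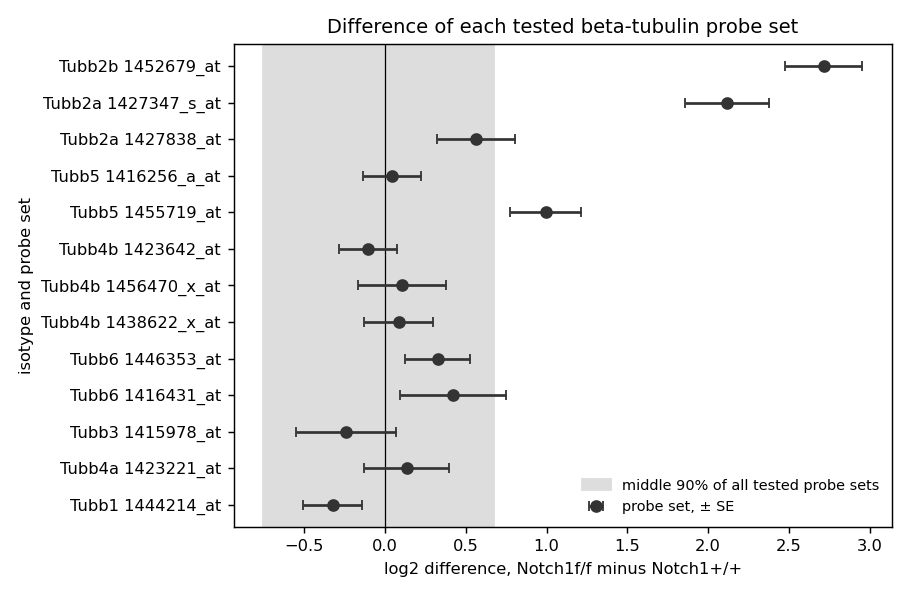
Log2 difference, Notch1f/f minus Notch1+/+, of the 13 tested beta-tubulin probe sets (points, with bars of 1 SE), over the middle 90% of all tested probe sets (grey, -0.75 to 0.68). Tubb2b, the bright Tubb2a probe set and 1 of the Tubb5 probe sets lie to the right of the grey band, and the other 10 lie inside it.

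Several signals of other cells and of the arrays moved with the tumour groups, and their part in the Tubb2b and Tubb2a values was not tested. All 8 macrophage markers were measured, with a summed intensity of 1286 to 2760 in the Notch1f/f lymphomas and 226 to 835.5 in the Notch1+/+ lymphomas, none was listed at 0, and 5 were higher without overlap, against 9.15% of all genes. C1qb, a complement component made by macrophages, had 279, 235 and 473 in the Notch1f/f lymphomas and 20.4, 118 and 149 in the Notch1+/+ lymphomas. The highest macrophage sum was that of Notch1f/f tumour 3, where Lyz2 alone had 1122.5. Cd68, Cd14 and Adgre1 overlapped between the groups, with log2 differences of 0.82, 0.15 and -0.19. The array's probe sets for 18S ribosomal RNA, which serve as controls, were also brighter on the Notch1f/f arrays, for example at 319, 287 and 249.5 on the Notch1f/f arrays and 64.8, 103 and 125 on the Notch1+/+ arrays for the 3' probe set.

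For neurons and platelets, in which some of these isotypes are best known, the markers were low. The 10 neuronal markers summed to 160 to 337 in the Notch1f/f lymphomas and 90.7 to 157 in the Notch1+/+ lymphomas, and 4 of them stayed under the intensity of 7.60 that served as the filter on every array. Elavl4, an RNA-binding protein of neurons, was the only one over 100 anywhere. It had 98.0, 270 and 166.5 in the Notch1f/f lymphomas and 65.3, 15.1 and 101 in the Notch1+/+ lymphomas. Its groups overlapped, with a log2 difference of 1.44 ± 0.50 (SE, limma adjusted p = 0.297). The neuronal sums did not overlap, though by little. Of the 5 tested neuronal genes, 4 lay above 0 and 1 below, where 51.6% of all genes lay below 0. Syp, at most 15.6, was the only 1 higher without overlap, against 9.15% of all genes. The 8 measured platelet markers summed to 152 to 254 in the Notch1f/f lymphomas and 126 to 156 in the Notch1+/+ lymphomas, and Pf4 alone exceeded 100. Neuronal, fibroblast and B cell markers differed between the groups in part, none past limma's adjusted p of 0.05. Their part in the values of Tubb2b and Tubb2a was not tested either. The 7 fibroblast markers summed to 868 to 1951 in the Notch1f/f lymphomas and 1401 to 2552 in the Notch1+/+ lymphomas. Pdgfrb alone made up most of each sum, with 813, 1029 and 1827 in the Notch1f/f lymphomas and 1976, 1282 and 1103 in the Notch1+/+ lymphomas. The sums therefore say little of the other fibroblast markers. All 6 tested fibroblast markers had log2 differences below 0, with a median of -0.61, where 51.6% of all genes lay below 0. Col1a2, a collagen chain, had 13.2, 39.8 and 71.3 in the Notch1f/f lymphomas and 190, 978 and 53.3 in the Notch1+/+ lymphomas, which overlap. The 6 endothelial markers summed to 283 to 303 in the Notch1f/f lymphomas and 203.5 to 370 in the Notch1+/+ lymphomas. The 5 measured B cell markers summed to 65.5 to 269.5 in Notch1f/f and 36.3 to 195 in Notch1+/+, where Blk reached 151 in a single tumour. Of their 4 tested genes, 2 were higher without overlap, against 9.15% of all genes. Cd79b, a chain of the B cell receptor, had 37, 64.8 and 52.1 in the Notch1f/f lymphomas and 7.6, 26.4 and 18.7 in the Notch1+/+ lymphomas (limma adjusted p = 0.267). Cd79a, its partner chain, had 15, 12.1 and 121 in the Notch1f/f lymphomas and 7.3, 6.7 and 9.8 in the Notch1+/+ lymphomas. The 6 thymic epithelial markers summed to 41.8 to 62.8 in Notch1f/f and 49.3 to 54.7 in Notch1+/+. No marker of any of these lists was listed at 0 on an array.

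The genes around Tubb2a and Tubb2b were then read, to see whether the difference extended along chromosome 13. In the order of the RefSeq gene table (GRCm38.p6), 5 genes with a probe set were taken on either side, with 4930447K03Rik, a noncoding RNA gene between the pair. Of these 11 genes, 5 had a tested probe set. None passed limma's adjusted p of 0.05, where the lowest adjusted p was 0.180, and 1 of their 8 tested probe sets had an unadjusted p under 0.05, against 13.5% of all tested probe sets. That was Serpinb6a, an intracellular protease inhibitor, at 266, 252.5 and 313 in the Notch1f/f lymphomas and 144, 109 and 112 in the Notch1+/+ lymphomas. Its log2 difference was 1.09 ± 0.22 (SE), with groups that did not overlap. It was the only 1 of the 8 tested probe sets higher without overlap, against 8.13% of all tested probe sets. The genes measured nearest to the pair overlapped between the groups. Bphl, a hydrolase gene beside Tubb2a, had 120, 170.5 and 156 in the Notch1f/f lymphomas and 117, 67.1 and 166 in the Notch1+/+ lymphomas (limma adjusted p = 0.616). Psmg4, a proteasome assembly chaperone beyond Tubb2b, had 201.5, 270 and 424 in the Notch1f/f lymphomas and 247, 290 and 310.5 in the Notch1+/+ lymphomas (limma adjusted p = 0.981). The noncoding 4930447K03Rik reached at most 15.7 on any array. Nqo2, a quinone reductase, and Pxdc1 were dim with overlapping groups, and Serpinb6c, 1110046J04Rik, Slc22a23, Fam50b and Gm36839 were not bright enough to be tested.

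**Figure D3:**
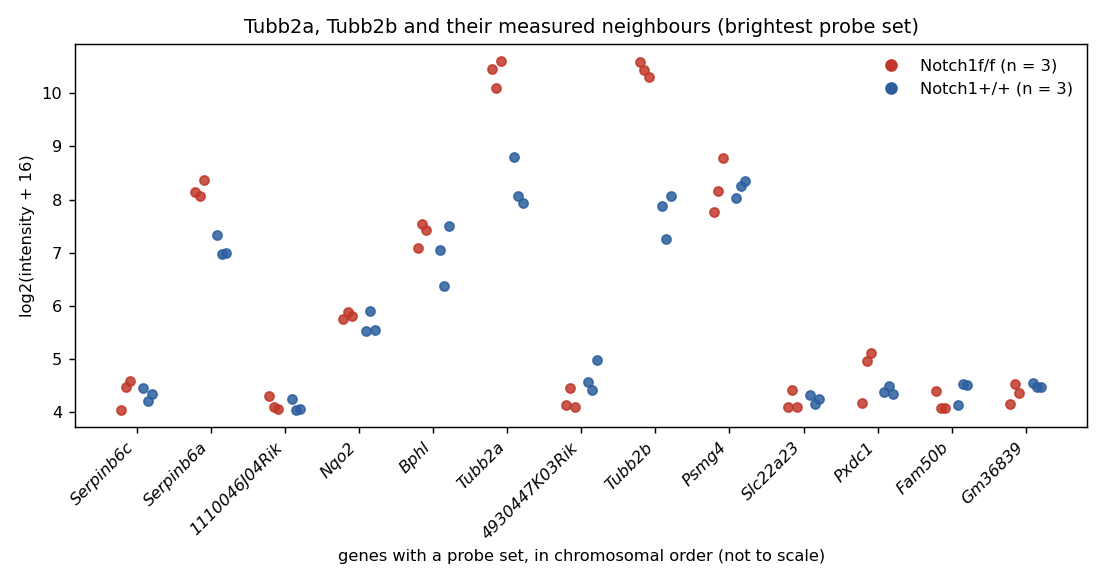
Log2(intensity + 16) in each tumour for Tubb2a, Tubb2b and the measured genes around them in chromosomal order, not to distance, with the brightest probe set of each gene. Apart from Tubb2a and Tubb2b, the groups lie apart only for Serpinb6a.

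No tested partner of beta-tubulin passed the test between the groups. Over 5 lists of tubulin-related genes, 71 of 93 genes had a tested probe set, each gene being read by its brightest. In limma 0 of the 71 passed an adjusted p of 0.05, with a lowest adjusted p of 0.212, where 0.0415% of all 12043 genes passed. At an unadjusted p under 0.05 4 had a positive and 8 a negative difference, against 6.86% and 6.15% of all genes. The groups did not overlap for 5 higher and 11 lower of the 71, against 9.15% and 9.17% of all genes. The median log2 difference of all genes was -0.01.

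Alpha-tubulin, the partner in the dimer, was read by 3 tested genes of 8, with a median log2 difference of -0.64, that of Tuba8. Tuba1b, Tuba1c, Tuba3a and Tubal3 had no probe set named for them alone and were not read. Of the 3 tested, 1 was lower at an unadjusted p under 0.05, against 6.15% of all genes. None passed limma's adjusted p of 0.05. Tuba4a had 750, 506 and 844 in the Notch1f/f lymphomas and 1027, 1608 and 1028 in the Notch1+/+ lymphomas, a log2 difference of -0.79 ± 0.25 (limma adjusted p = 0.295). These groups did not overlap and lay the opposite way to Tubb2b. Tuba1a, an isotype of neurons and of many other cells, had 960, 957 and 1452.5 in the Notch1f/f lymphomas and 314, 1161 and 971 in the Notch1+/+ lymphomas (limma adjusted p = 0.541). Tuba8 was dim except in Notch1+/+ tumour 2, where it reached 137. Its probe set passed no threshold (limma adjusted p = 0.672).

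Folding of tubulin begins on prefoldin and the CCT chaperonin and ends on the cofactors that join the dimer. The 23 genes of folding and autoregulation were all tested, with a median log2 difference of -0.05. Of them 7 lay above 0 and 16 below, where 51.6% of all genes lay below 0. At an unadjusted p under 0.05, 2 were higher and 0 lower, against 6.86% and 6.15% of all genes. None passed limma's adjusted p of 0.05. The smallest p was that of Ttc5, which in human cells recognises nascent tubulin and starts the decay of its mRNA. Ttc5 had 600, 406 and 406 in the Notch1f/f lymphomas and 266, 208 and 203 in the Notch1+/+ lymphomas. Its groups did not overlap, and the log2 difference was 1.00 ± 0.23 (limma adjusted p = 0.212). The prefoldin subunits did not move as 1: Vbp1 had 1160 ± 58.4 in the Notch1f/f lymphomas and 853 ± 137 in the Notch1+/+ lymphomas, while Pfdn2 had 337 ± 40.4 in Notch1f/f and 449 ± 60.8 in Notch1+/+ (SD, n = 3 each; limma adjusted p = 0.340 and 0.416). Pdcl3, a helper of the chaperonin, had 294 ± 51.0 in the Notch1f/f lymphomas and 401 ± 59.4 in the Notch1+/+ lymphomas (limma adjusted p = 0.418).

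The list of gamma-tubulin, its ring complex and delta- and epsilon-tubulin, which serve nucleation and centrioles, had 11 tested genes, with a median log2 difference of -0.11. It held 4 genes at an unadjusted p under 0.05, all lower, against 6.15% of all genes, and none past limma's adjusted p of 0.05. Nedd1, which brings the ring complex to centrosomes, had 160, 166 and 95 in the Notch1f/f lymphomas and 241, 262 and 220 in the Notch1+/+ lymphomas (limma adjusted p = 0.297). The other 3 were Tubd1, Tubgcp6 and Tubg1, with log2 differences of -0.81 ± 0.29, -0.71 ± 0.26 and -0.59 ± 0.26. Proliferation genes lay the same way, and their part in the values of this list was not tested: 11 of 11 measured had log2 differences below 0, against 51.6% of all genes, with a median of -0.37. In limma 0 of those 11 passed an adjusted p of 0.05, and 5 had an unadjusted p under 0.05, all lower, against 6.15% of all genes. Kif11, a spindle motor, had 228, 302 and 246.5 in the Notch1f/f lymphomas and 447, 467 and 406 in the Notch1+/+ lymphomas (limma adjusted p = 0.263). Aurkb, Top2a and Mcm2 followed, with log2 differences of -0.65 ± 0.21, -0.70 ± 0.25 and -0.74 ± 0.27. The proliferation genes summed to 12269, 17285 and 12273 in the Notch1f/f lymphomas and 19284, 18294 and 17916 in the Notch1+/+ lymphomas.

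Microtubule-associated genes and regulators of microtubule dynamics had 17 tested genes of 28, with a median log2 difference of -0.04. At an unadjusted p under 0.05, 1 was higher and 2 lower, against 6.86% and 6.15% of all genes. None passed limma's adjusted p of 0.05. Map4, a microtubule-stabilising protein of cells outside the nervous system, had 433, 241 and 261 in the Notch1f/f lymphomas and 173, 183 and 128 in the Notch1+/+ lymphomas (log2 difference 0.85 ± 0.27, limma adjusted p = 0.294). Ckap5, a microtubule polymerase, and Kif2c, a kinesin that takes microtubules apart, had log2 differences of -0.59 ± 0.21 and -0.54 ± 0.22. Clasp1, which binds growing ends, had -0.35 ± 0.20.

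The 17 tested enzymes that modify tubulin had a median log2 difference of -0.11. Of them 1 was higher and 1 lower at an unadjusted p under 0.05, against 6.86% and 6.15% of all genes. None passed limma's adjusted p of 0.05. Vash2, a carboxypeptidase that removes the last tyrosine of alpha-tubulin, had 3.4, 13.1 and 3.5 in the Notch1f/f lymphomas and 17.7, 106 and 92.0 in the Notch1+/+ lymphomas. These groups did not overlap, and its log2 difference was -1.78 ± 0.46 (limma adjusted p = 0.244). Agbl5, which removes glutamate added to tubulin tails, had 214, 190 and 220 in the Notch1f/f lymphomas and 149, 104 and 121.5 in the Notch1+/+ lymphomas (0.68 ± 0.23, limma adjusted p = 0.295). Ttll4 and Ttll1, which add glutamate there, had log2 differences of -0.57 ± 0.26 and -0.50 ± 0.25.

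**Figure D4:**
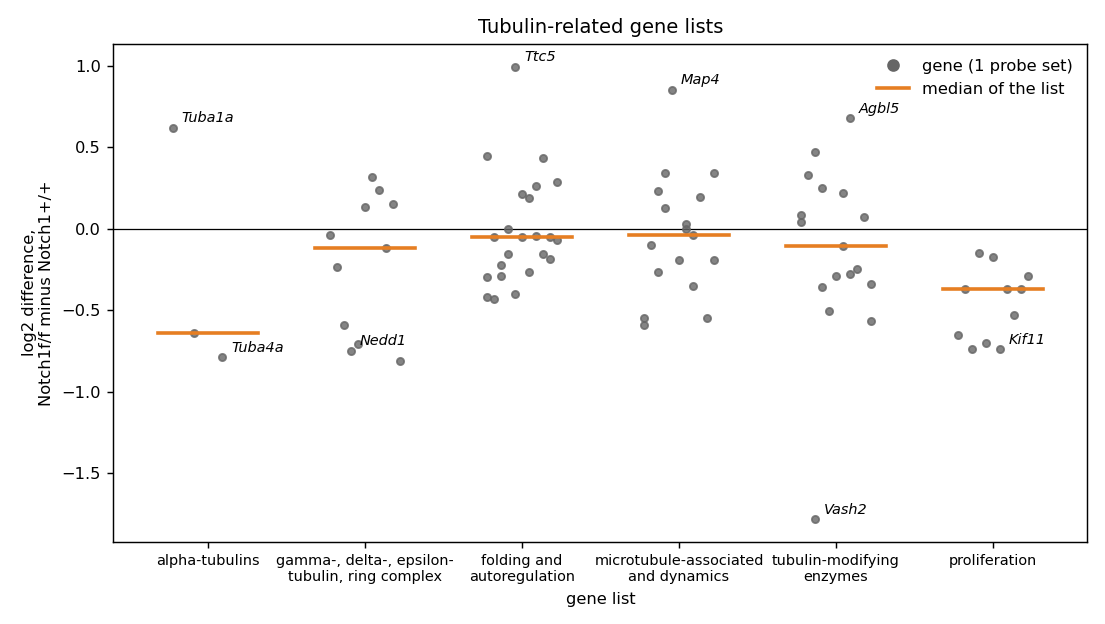
Log2 difference, Notch1f/f minus Notch1+/+, of each tested gene (points) of 5 tubulin-related lists and of the proliferation genes, with the median of each list (orange bars). Points of the tubulin lists lie on both sides of 0, with Ttc5 the highest at 1.00 and Vash2 the lowest at -1.78, and all 11 proliferation genes lie below 0.

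The genes most like Tubb2b over the 6 tumours were sought by the Euclidean distance between log2 profiles, each centred on its own mean, among 12042 other genes. A gene flat over all tumours would lie 3.38 from Tubb2b. The nearest was Bambi-ps1, an annotated pseudogene, at 1.00, with 530, 420.5 and 418.5 in the Notch1f/f lymphomas and 31.1, 17.2 and 105 in the Notch1+/+ lymphomas. Ms4a4b, which encodes a T cell membrane protein, followed at 1.05, Ypel3, an antiproliferative gene, at 1.17, Tubb2a at 1.19 and Ccr7, a chemokine receptor of mature T cells, at 1.20. Tubb2a was thus the 4th nearest of all genes, when each gene was read by its brightest probe set. That Tubb2a probe set, 1427347_s_at, may also detect Tubb2b, so part of the likeness may be shared signal, which was not tested. The probe sets of Tubb5 differed again: 1455719_at lay at 2.44 and 1416256_a_at at 3.40. The dim Tubb2a probe set lay at 2.75, the Tubb6 probe sets at 3.07 and 3.22, and those of Tubb4b, Tubb4a, Tubb1 and Tubb3 at 3.34 to 3.84, about as far as a flat gene or farther.

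From the side of Tubb2a, whose flat distance was 2.70, the nearest were Xkrx, a gene related to the Kell blood group protein XK, at 0.67, Ypel3 at 0.92, the myotubularin-related Mtmr9 at 0.93, Ramp3, a receptor accessory protein, at 0.95 and Ypel5 at 0.99. Tubb2b came 16th, at 1.19. Xkrx had 126, 115 and 130 in the Notch1f/f lymphomas and 32.8, 26.2 and 20.6 in the Notch1+/+ lymphomas. All these genes share the same 6 tumours and the same split between the groups, so the distances are a description.

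**Figure D5:**
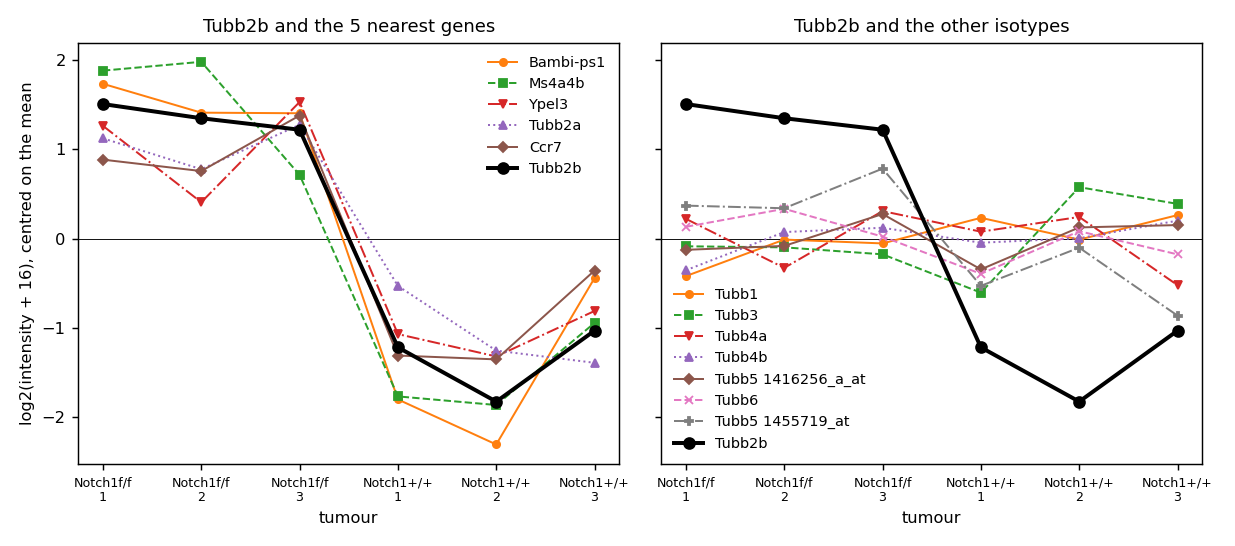
Log2(intensity + 16) of Tubb2b (black) centred on its mean over the 6 tumours, with the 5 genes nearest to it on the left and the other isotypes, with both Tubb5 probe sets, on the right; lines only join the points of a gene. The 5 nearest genes lie above their means in all 3 Notch1f/f lymphomas and below them in all 3 Notch1+/+ lymphomas, as Tubb2b does, and so does Tubb5 1455719_at on the right, by less, while the other isotypes on the right show no such split.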

How the data were processed

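Per the submitters' processing notes, the authors deposited MAS5 signals, linear intensities with 1 value per probe set; the version is not given in the sources used here. The mean of the middle values of each array, with 2% trimmed at each end, was 100. Genes were named through an annotation table of the array matched by Entrez identifier to RefSeq (GRCm38.p6). Of 45101 probe sets, 34945 had 1 symbol, and those with several symbols or none were tested but not named. Detection calls were not used.

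The log2 of each intensity plus 16 was used. The 64 control probe sets, and probe sets with a mean log2 under the 40th percentile of the rest (an intensity of 7.60), were left out, which left 27022. Notch1f/f minus Notch1+/+ was fitted with lmFit and eBayes (trend) in limma 3.58.1 under R 4.3.3, two-sided, with Benjamini-Hochberg adjustment. The fit was tested on simulated data with equal noise in all probe sets, unlike the arrays, so this checked the steps only. The labels give no batch and no pairing, and separate mice are the replicates. With 3 arrays per group, their number limits the precision. Figures were drawn with matplotlib 3.10.9.

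The members and gene lists were chosen with earlier results of these data known. In the lists and profiles a gene was read by its brightest tested probe set. Sums of intensities used the brightest probe set of a gene, tested or not. Named are all isotypes, the up to 4 genes with the lowest p-values in a list, the genes nearest in profile to Tubb2b and Tubb2a, and their chromosomal neighbours. Marker lists are given mainly as sums of intensities. Alternatives were a pseudocount of 1 or 64, no filter or a 60th percentile filter, centring on medians or quantile normalisation, array weights, eBayes without trend, each tumour left out, and averaging the probe sets of a gene.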

Additional observations from a re-analysis of the deposited data

Results flagged for a closer look

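A probe set outside the members carried a pair of symbols, Tubb2b and the pseudogene Tubb2a-ps2, and so was named for neither. It had intensities of 431.5, 536 and 354 in the Notch1f/f lymphomas, against 46.6, 50.7 and 143 in the Notch1+/+ lymphomas, a log2 difference of 2.37 ± 0.37 (SE, n = 3 each), without overlap. The 3 probe sets named for Tubb2a-ps2 alone reached at most 13.9 on any array.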

How the results depend on the processing

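Tubb2b and the bright Tubb2a probe set kept their direction under all 14 alternatives, with log2 differences of 2.47 to 2.89 and 1.95 to 2.38, and so did Tubb5 1455719_at, at 0.81 to 1.19. Tubb5 1416256_a_at kept its sign in 10 of 14 and Tubb4b 1423642_at in 13 of 14. The number of beta-tubulin probe sets called was 2 with median centring and with array weights, where Tubb2a was added, and 0 to 2 with each tumour left out. Over all probe sets the main count of 5 became 3 with no filter, 11 with median centring, 27 with array weights, and 2 to 14 with each tumour left out; leaving out Notch1f/f tumours 1, 2 and 3 gave 3, 12 and 2, and leaving out Notch1+/+ tumour 3 gave 14. The cause of these shifts was not tested. The median log2 difference of the beta-tubulin probe sets was 0.55 with the 60th percentile filter, which left 6 of them, and 0.01 to 0.33 with each tumour left out. No tubulin-related gene was called in limma under any alternative, with 6 to 15 at an unadjusted p under 0.05. No paired analysis was possible because the tumours came from separate mice and the labels give no pairing. The dim isotypes Tubb1, Tubb3, Tubb4a and Tubb6 lay near background, and their differences changed in size with the pseudocount.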
